A study of Homo sapiens with 2 samples.

Results

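The genes BCL11B, TCF7, LEF1, IKZF1, TOX and SATB1 encode transcription factors and a chromatin organiser that set up and keep the T cell programme, and peaks of 2 proteins were described at these 6 loci: UTX and TAL1. The members were found by position, as every peak with at least 1 base in a fixed window around each gene (hg19, positions counted from 1). The rule itself uses neither peak size nor sharing, but the loci and windows were chosen with earlier results of these data known. The windows run from 133420000 to 133510000 on chromosome 5 (TCF7), from 108940000 to 109120000 on chromosome 4 (LEF1), from 59690000 to 60060000 on chromosome 8 (TOX), from 99600000 to 99780000 on chromosome 14 (BCL11B), from 50310000 to 50500000 on chromosome 7 (IKZF1) and from 18360000 to 18510000 on chromosome 3 (SATB1). Together they span 1.16 Mb and hold 37 of the 17396 UTX peaks and 10 of the 2678 TAL1 peaks. A peak is credited to a window and not to a gene: an hg19 annotation was not used here, so exons, introns and start sites cannot be given, and the letters under the peaks are not shown because an hg19 genome was not used.

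The UTX list comes from 1 chromatin immunoprecipitation sequencing (ChIP-seq) library of untreated Jurkat cells, an established human line of T-ALL (T cell acute lymphoblastic leukaemia), made with a mix of a home-made antibody and a second antibody against UTX. A mock library of the same cells with an isotype IgG was not analysed here. The TAL1 list derives from an earlier study, and the cells behind it are not named in the labels. Both lists give positions only, so the depth is unknown, width is the only measure of a peak, and there are no replicates: no difference below can be set against replicate error, and all comparisons are descriptions of these lists without a test. Jurkat identity could not be checked against marker genes, since peak positions hold no expression.

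UTX, the product of KDM6A, takes methyl groups off lysine 27 of histone H3 (H3K27), a mark of Polycomb-repressed chromatin. TAL1 is a basic helix-loop-helix factor that binds E-box sequences in complexes with GATA, RUNX and LMO proteins, and that is active in T-ALL although normal T cells switch it off early. TCF7 encodes TCF-1, an HMG-box factor induced by Notch signalling at the start of T cell development; LEF1 encodes its close relative, and both bind beta-catenin. TOX is another HMG-box protein, required for CD4 lineage development, BCL11B is a zinc finger repressor required for commitment to the T lineage, IKZF1 encodes Ikaros, a zinc finger regulator of lymphoid cells that is often altered in lymphoblastic leukaemia, and SATB1 folds chromatin in thymocytes by binding AT-rich DNA. The series asks at which sites UTX and TAL1 were both found.

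UTX was called at each of the 6 loci, and TAL1 at 4 of them. By number, the HMG-box loci carried most of both: LEF1 had 10 UTX and 4 TAL1 peaks, TCF7 had 9 and 2, and TOX had 9 and 3. SATB1 had 3 UTX peaks and 1 TAL1 peak. The zinc finger loci had UTX alone: IKZF1 had 5 UTX peaks and BCL11B had 1, both with 0 TAL1 peaks. By length the order of UTX differed: 100 peaks per Mb at TCF7, 55.6 at LEF1, 26.3 at IKZF1, 24.3 at TOX, 20 at SATB1 and 5.56 at BCL11B. The windows together had 31.9 UTX peaks per Mb, against 5.88 per Mb over the whole UTX list, and 8.62 TAL1 peaks per Mb, against 0.905 per Mb over the whole TAL1 list. Whole-list densities were taken over the 2960 Mb between the first and last peak of each chromosome, assembly gaps included.

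The windows differ in length, so each count was read against all consecutive windows of the same length across the genome. These background windows include assembly gaps and were not chosen to hold a gene, unlike the 6 loci. Of those of 90 kb, 71.6% held no UTX peak. Among windows of 90 kb, 0.106% held at least 9 UTX peaks, as TCF7 did, and 1.00% held at least 2 TAL1 peaks. Among windows of 180 kb, 0.572% held at least 10 UTX peaks and 0.189% at least 4 TAL1 peaks, the counts of LEF1. Both loci stood at the dense end of both lists. For TOX, whose window is 370 kb long, 4.80% of windows of this length held at least 9 UTX peaks and 2.29% at least 3 TAL1 peaks. At IKZF1 (190 kb) the share with at least 5 UTX peaks was 6.03%. At SATB1 (150 kb) 11.8% held at least 3 UTX peaks and 10.7% at least 1 TAL1 peak. BCL11B was in the ordinary range, since 42.3% of windows of its length held at least 1 UTX peak. Holding no TAL1 peak, as BCL11B and IKZF1 did, was common: 87.6% of windows of 180 kb and 77.4% of those of 370 kb held none. The loci were picked with results of these data known, so these shares place them in the lists and test nothing.

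**Figure D1:**
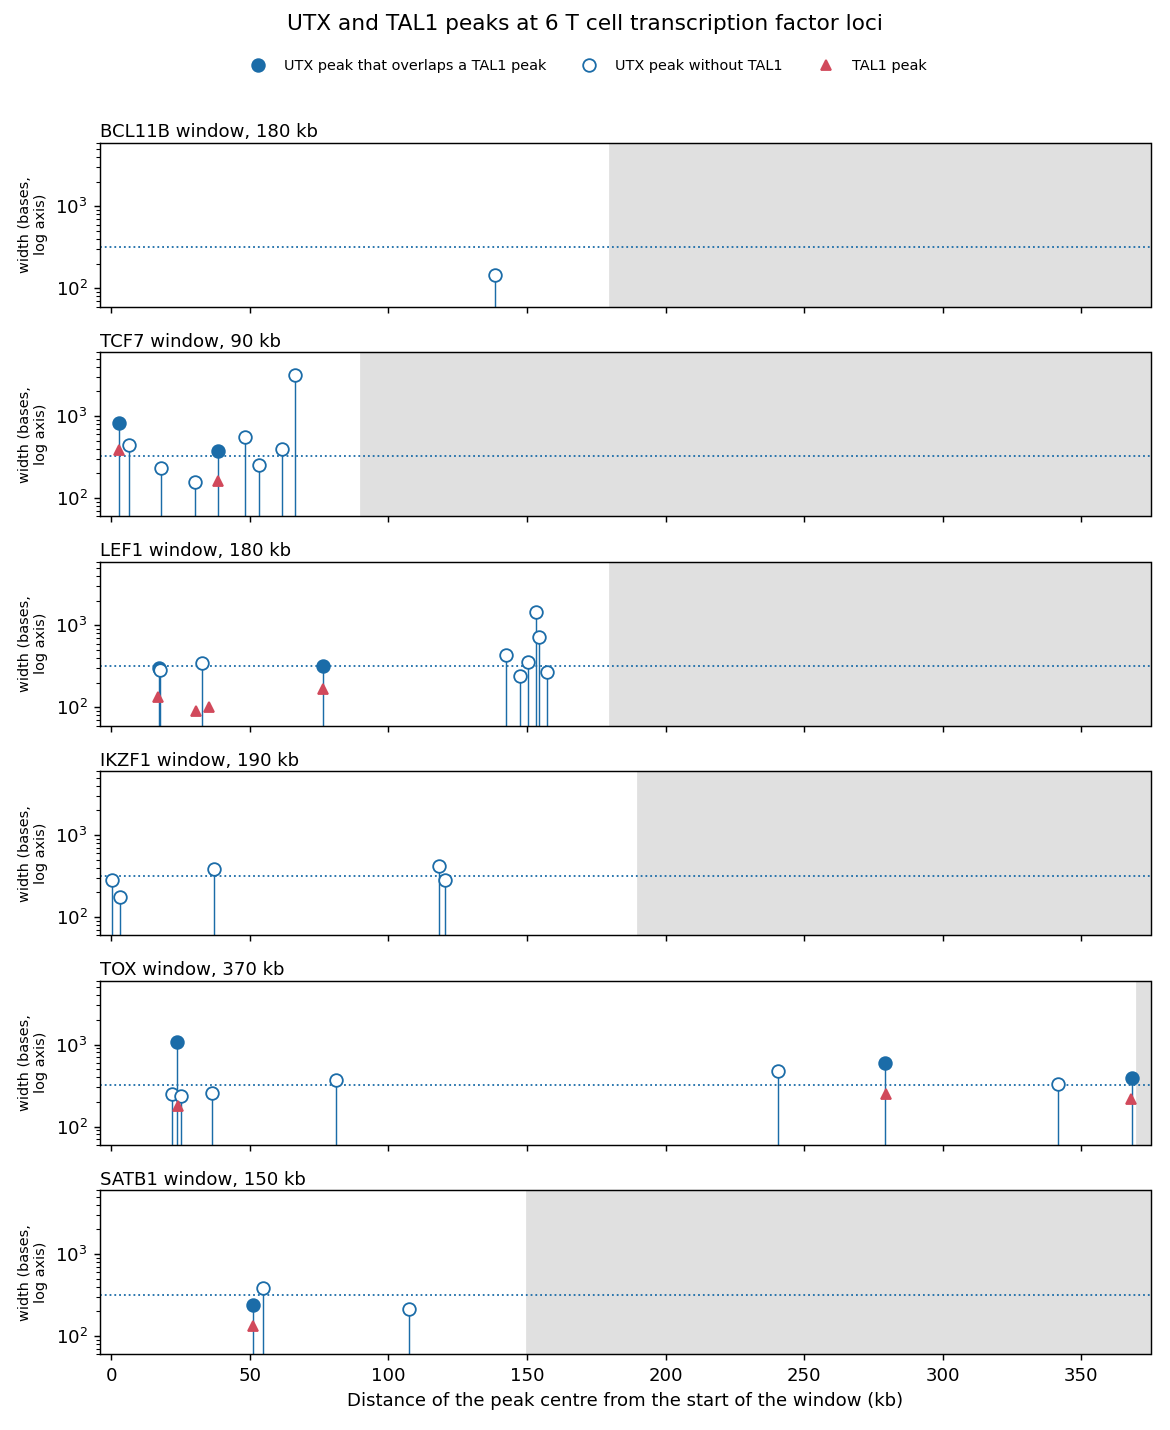
Each panel is 1 window; the x axis gives the distance of a peak's centre from the start of the window in kb, the y axis its width in bases on a log scale, grey marks the area beyond the window and the dotted line the median of the whole UTX list (320 bases). Filled circles are UTX peaks that overlap a TAL1 peak, open circles UTX peaks without one and triangles TAL1 peaks: the widest UTX peak, at TCF7, is open, and BCL11B holds a single narrow peak.

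TCF7 was the locus with the highest UTX density, 100 peaks per Mb, and UTX peaks covered 7.07% of its window. The 9 UTX peaks measured, in order along the chromosome, 810, 443, 231, 157, 369, 560, 249, 400 and 3145 bases. They lay 2.68 to 12.1 kb apart, and the longest stretch of the window without UTX, 22.3 kb, was the shortest such stretch of the 6 loci. The last peak, at chr5:133484593-133487737, stood apart by its width: it was 7.86 times the median of the locus, ranked 21 of 17396 in the UTX list and made up 49.4% of the bases that UTX covered in the window. It held no TAL1 peak, and the nearest one was 26 kb away. In the RefSeq gene table for GRCh38, used only for the order and overlap of genes, the next protein-coding gene after TCF7 is SKP1, a subunit of an E3 ubiquitin ligase. In the same gene table VDAC1, which encodes a channel of the outer mitochondrial membrane, overlaps TCF7. Whether the wide peak lies on any of these genes was not determined.

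Both TAL1 peaks of the TCF7 window lay inside a UTX peak. The first, 385 bases at chr5:133422656-133423040, ranked 32 of 2678 in the TAL1 list by width, and its UTX peak of 810 bases, at chr5:133422379-133423188, was the second widest of the locus. The second, 159 bases at chr5:133458401-133458559, was held by a UTX peak 369 bases wide at chr5:133458206-133458574. The third widest UTX peak of the locus, 560 bases at chr5:133468032-133468591, had no TAL1. The 2 TAL1 peaks were 35.4 kb apart, so TAL1 sat at the lower edge and towards the middle of the window, with 7 UTX peaks beside them that had none.

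At LEF1 the 10 UTX peaks fell into a dense group and a sparse remainder. A group of 6, from 109082193 to 109097453, packed 3475 bases of UTX peaks into 15.3 kb, with widths of 438, 243, 354, 1444, 728 and 268 bases. Its widest peak, 1444 bases at chr4:109092436-109093879, ranked 131 in the UTX list and was followed after 113 bases by the peak of 728 bases, at chr4:109093993-109094720. The third widest, 438 bases at chr4:109082193-109082630, opened the group. No TAL1 peak lay within 65.9 kb of this group. The other 4 UTX peaks, 302, 289, 353 and 317 bases wide, were near the median of the whole list. Between them and the group ran 65.8 kb without UTX.

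The 4 TAL1 peaks of LEF1 all lay in the sparse part, and 2 of them overlapped UTX. The shared ones measured 134 bases at chr4:108956949-108957082 and 168 bases at chr4:109016163-109016330, in UTX peaks of 302 bases at chr4:108956896-108957197 and 317 bases at chr4:109016096-109016412. The 2 without UTX were narrow, 91 bases at chr4:108970664-108970754 and 100 bases at chr4:108975332-108975431; in the whole TAL1 list 5.68% and 11.3% of peaks were narrower. They flanked the UTX peak of 353 bases at chr4:108972440-108972792 on either side, at 1.69 and 2.54 kb. These were the only TAL1 peaks of the 6 loci without UTX. The lower end of the window may reach beyond LEF1: in the gene table its neighbour at lower coordinates is HADH, an enzyme of fatty acid oxidation, and LEF1-AS1 overlaps LEF1.

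TOX had the longest window and the widest spacing among the loci with TAL1. Its 9 UTX peaks measured 246, 1065, 236, 255, 367, 469, 596, 328 and 395 bases and lay a median of 32.3 kb apart. The first 3 formed a group of 3.25 kb, while the middle of the window had 159 kb, or 43% of its length, without a UTX peak. Each of the 3 TAL1 peaks lay in a UTX peak. They measured 178 bases at chr8:59714090-59714267, 249 bases at chr8:59969254-59969502 and 214 bases at chr8:60058038-60058251, all above the median of the TAL1 list (147.5 bases), and were spread over the window at 24.2, 279 and 368 kb from its start. Here the widest UTX peak, 1065 bases at chr8:59713355-59714419, carried TAL1, unlike the widest peaks of TCF7, LEF1 and SATB1. IKZF1 and BCL11B had no TAL1 peak in the window. The other UTX peaks with TAL1 measured 596 bases at chr8:59969040-59969635 and 395 bases at chr8:60057964-60058358, and the third widest of the locus, 469 bases at chr8:59930258-59930726, had none. The UTX peak of the third site is centred 1.84 kb inside the upper edge of the window, and the site would drop out with a slightly shorter one.

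SATB1 had 3 UTX peaks of 238, 382 and 211 bases. The narrower first one, at chr3:18410969-18411206, held the single TAL1 peak of the locus, 132 bases at chr3:18411052-18411183. The peak of 382 bases, at chr3:18414475-18414856, followed after 3.27 kb, 3.29 kb from the TAL1 peak. The third, at chr3:18467387-18467597, lay 52.5 kb further on, alone, with 18.7% of the UTX list narrower. SATB1 thus had the narrowest UTX peak with TAL1 among the shared sites of the 6 loci.

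IKZF1 had 5 UTX peaks of 284, 176, 388, 417 and 282 bases, in pairs at the start and beyond the middle of the window with a single peak between. None was wide: the locus maximum of 417 bases, at chr7:50428132-50428548, was 1.47 times its median. The next widest were those of 388 bases at chr7:50346706-50347093 and 284 bases at chr7:50309997-50310280. This last peak, the first of the locus, crosses the lower edge of the window by 3 bases, and another UTX peak lay 3.12 kb outside it. The nearest TAL1 peak lay 1638 kb from the nearest UTX peak of this locus, in a list with 0.905 TAL1 peaks per Mb.

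BCL11B had a single UTX peak, 144 bases at chr14:99738448-99738591. It was among the narrowest of the list, with 1.21% of UTX peaks narrower and a list minimum of 134 bases, and stood 209 kb from the next UTX peak. UTX peaks covered 0.08% of the window, against 0.229% over the whole list, the lowest coverage of the 6 loci. No TAL1 peak lay in the window, and the nearest was 149 kb outside it.

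**Figure D2:**
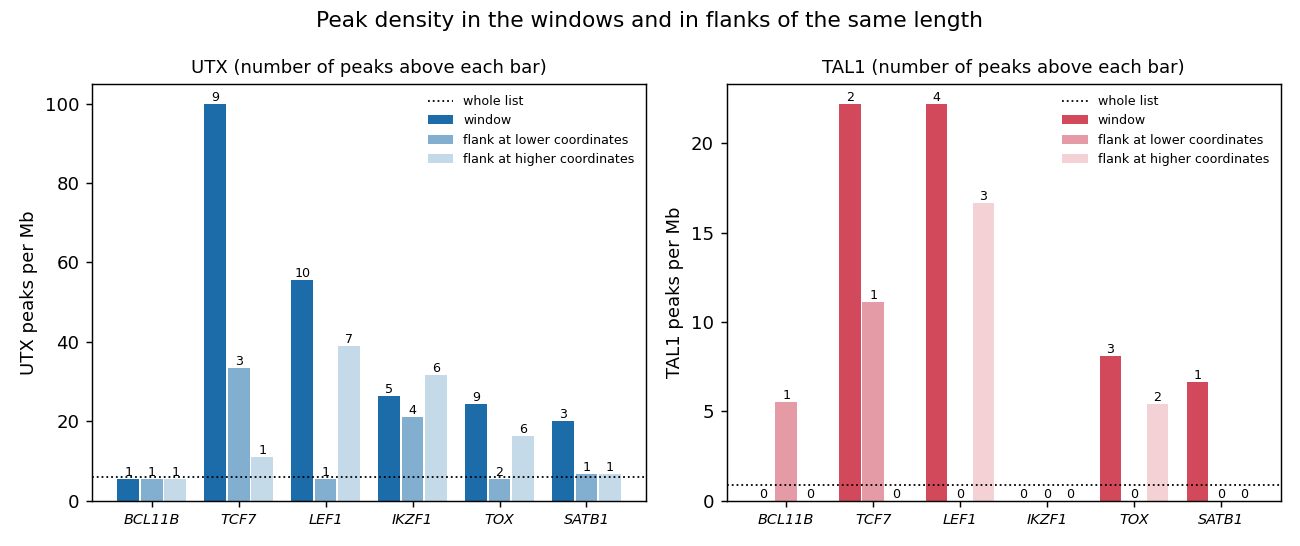
Bars give peaks per Mb for UTX (left) and TAL1 (right) in each window and in the flanks of the same length at lower and higher coordinates, with the number of peaks above each bar; the dotted line is the density of the whole list. TCF7, LEF1, TOX and SATB1 had more UTX peaks in the window than in either flank, BCL11B had 1 in each, and IKZF1 had 5 in the window beside 4 and 6.

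The excess over the whole list was partly shared by the surroundings. In the flanks of the same length on both sides, 2.32 Mb in all, there were 34 UTX peaks (14.7 per Mb) and 7 TAL1 peaks (3.02 per Mb), less dense than the windows and denser than the lists as a whole. The contrast was sharp at TCF7, with 9 UTX peaks in the window against 3 and 1 in its flanks. SATB1 had 3 against 1 and 1. At LEF1 it was one-sided, with 10 UTX peaks in the window against 1 in the flank at lower coordinates and 7 in the one at higher coordinates. TOX had 9 against 2 and 6. IKZF1, with 5 against 4 and 6, did not stand out from its flanks, and neither did BCL11B, with 1 against 1 and 1.

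Across the 6 loci, 8 of 37 UTX peaks overlapped a TAL1 peak (21.6%, 95% exact binomial interval 9.83 to 38.2%), against 12.1% of the whole UTX list. The whole-list share lies inside that interval, which covers the counting of peaks only. In the 1 Mb on either side of the windows the share was nearly that of the loci, 25 of 119 UTX peaks (21%). The 8 were 2 at TCF7, 2 at LEF1, 3 at TOX and 1 at SATB1. From the other side, 8 of 10 TAL1 peaks overlapped UTX peaks (80%, interval 44.4 to 97.5%), against 80.8% of the whole TAL1 list. Sharing seen from TAL1 was thus close to the background, and there were 3.7 UTX peaks per TAL1 peak at the loci against 6.5 in the lists as a whole.

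**Figure D3:**
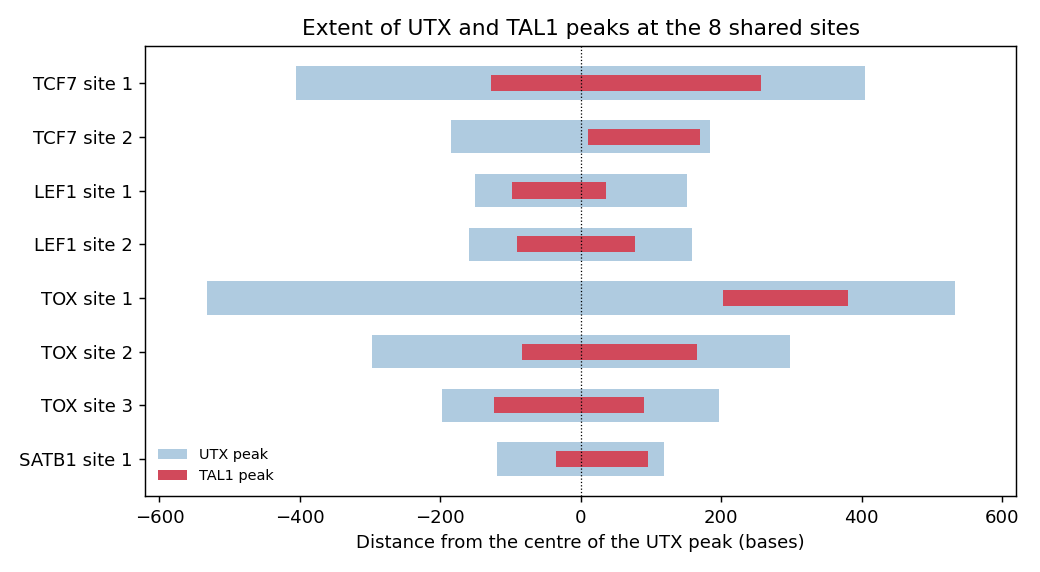
Each row is 1 of the 8 shared sites, numbered along the chromosome within a locus, with the UTX peak as the pale bar and the TAL1 peak as the dark bar; the x axis gives the distance from the centre of the UTX peak in bases. All 8 dark bars lie within their pale bars, and at TOX site 1 the TAL1 peak is 291.5 bases from the UTX centre.

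At the shared sites TAL1 sat inside UTX. All 8 TAL1 peaks lay wholly within their UTX peak, as did 1951 of the 2163 shared TAL1 peaks of the whole list. The centres were 64.5 and 90 bases apart at TCF7, 31 and 7.5 at LEF1, 291.5, 40.5 and 16.5 at TOX and 30 at SATB1. Their median was 35.75 bases, against 44.5 over the whole lists. TAL1 filled 41.8 to 55.5% of the UTX peak at 7 of the sites and 16.7% at the wide TOX peak, where it lay off centre. A TAL1 peak cannot lie far from the centre of a narrow UTX peak that holds it, so the widths bound these distances.

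UTX widths at the loci were close to those of the whole list. Their median was 353 bases (quartiles 249 and 438), against 320 (quartiles 230 and 457). Peaks wider than 1 kb numbered 3 of 37 (8.11%), against 2.15% of the whole list: 1 each at TCF7, LEF1 and TOX. UTX peaks with TAL1 had a median of 382 bases and those without it 328, against 405 and 310 in the whole list. Of the 3 wide peaks, the one at TOX held TAL1 and the ones at TCF7 and LEF1 did not. In the whole list, 80 of the 374 UTX peaks wider than 1 kb overlapped TAL1. The TAL1 peaks with UTX had a median of 173 bases, and the 2 without it measured 91 and 100 bases.

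UTX peaks at these loci tended to have near neighbours. With neighbours joined across gaps of up to 10 kb within the windows, 12 of 37 (32.4%) stood alone, against 59.1% of the whole list, and 12 (32.4%) belonged to groups of 5 or more, against 4.94%. These 12 were the 6 of the LEF1 group and 6 at TCF7 that ran over 37.7 kb from 133450046 to 133487737. TAL1 was found at 1 of these 12 peaks, in the TCF7 group, against 12.1% of the whole UTX list. The remaining groups held 2 or 3 peaks within the windows. Groups at the loci were cut at the window edges, while those of the whole list were not. Another UTX peak lay 5.71 kb below the TCF7 window and another 3.12 kb below that of IKZF1, so groups there may continue outside. At TOX the 9 UTX peaks formed 7 groups by this rule: 1 of 3 peaks and otherwise single peaks.

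**Figure D4:**
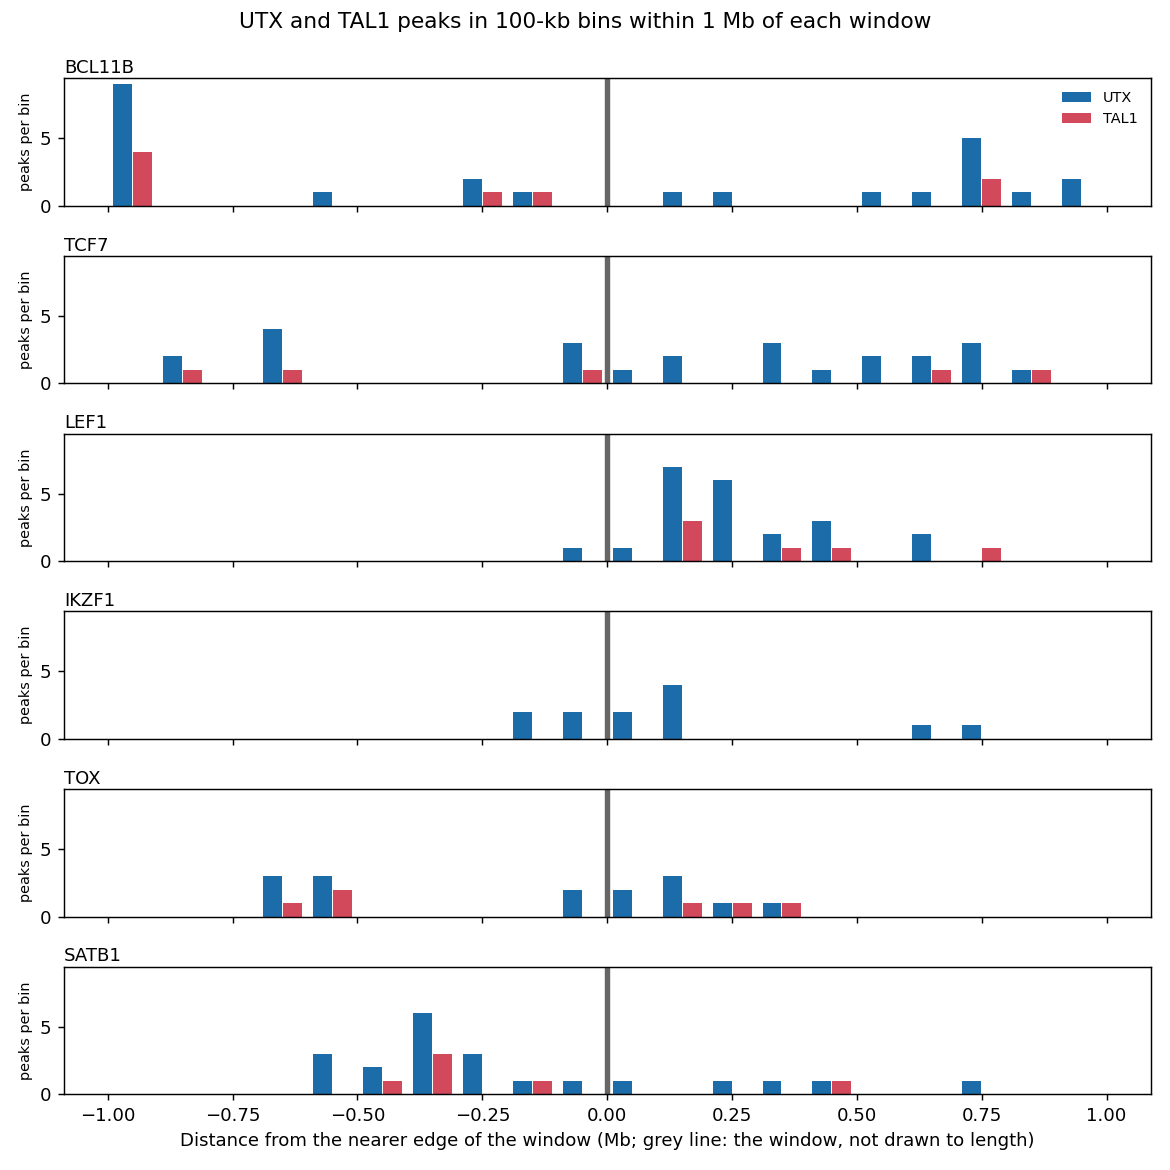
Bars give the number of UTX and TAL1 peaks in bins of 100 kb within 1 Mb of each window; the x axis is the distance from the nearer window edge in Mb, negative at lower coordinates, and the grey line stands for the window itself. The tallest bar, 9 UTX peaks with 4 TAL1 peaks, is nearly 1 Mb from the BCL11B window, and the IKZF1 panel has no TAL1 bar.

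Beyond the windows, peaks of both lists lay in separate distal groups. Within 1 Mb on either side of the 6 windows there were 119 UTX peaks (9.92 per Mb, against 5.88 over the whole list) and 31 TAL1 peaks (2.58 per Mb, against 0.905). Of the 31 TAL1 peaks, 29 (93.5%) overlapped UTX, against 80.8% of the whole list. Of the 120 bins of 100 kb, 67 (55.8%) held no UTX peak, against 69.6% of such bins across the genome. The densest bin of all belonged to BCL11B, the locus with the fewest peaks in its window. It ran from 98600000 to 98699999 on chromosome 14, 910 to 997 kb below the window by its peaks, and held 9 UTX peaks. Their widths were 181, 237, 855, 631, 327, 275, 608, 671 and 263 bases. The bin also held 4 TAL1 peaks, of 102, 193, 222 and 157 bases, and all 4 lay in UTX: 2 in the peak of 855 bases and 1 each in those of 608 and 671 bases. In the gene table the next protein-coding gene below BCL11B is VRK1, a kinase gene; where the group lies relative to VRK1 was not determined, and nothing in these lists ties it to BCL11B.

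LEF1 and SATB1 also had a distal group with TAL1. The densest bin at LEF1, from 109220001 to 109320000, held 7 UTX peaks, among them 1 of 1692 bases that held 3 TAL1 peaks of 233, 262 and 207 bases, 160 kb above the window. The densest bin at SATB1, from 17960000 to 18059999, held 6 UTX peaks and 3 TAL1 peaks, at 335 to 372 kb below the window. All 3 overlapped UTX, though not all lay wholly inside it. At TCF7 the densest bin held 4 UTX peaks and 1 TAL1 peak. At TOX 3 bins tied with 3 UTX peaks each, and held 1, 2 and 1 TAL1 peaks. IKZF1 was the only locus with 0 TAL1 peaks in these 2 Mb, beside 12 UTX peaks (4 below and 8 above). The whole TAL1 list had only 0.905 peaks per Mb, and how many segments of 2 Mb elsewhere held none was not counted. These bins were named after their counts were seen.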

How the data were processed

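Per the submitters' processing notes, BWA 0.6.2, SAMtools 0.1.18, MACS2 2.0.10 and the hg19 build were used; step order, peak threshold, filters and any role of IgG as control are not stated in the labels or notes used here. Both lists came as the authors deposited them, with chromosome, start and end of each peak, without scores, p-values or reads, which leaves depth unknown, and no signal could be set against the mock. The calling and build of the TAL1 list are not stated; hg19 is assumed for both lists.

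Starts were raised by 1 to count from 1. A peak was a member if at least 1 base lay in a window, and shared if at least 1 base overlapped the other list (checked with bedtools 2.31.1 and on simulated lists). Shares carry 95% exact (Clopper-Pearson) intervals. Flanks have the length of their window. Background windows run end to end between the first and last peak of each chromosome. Other steps used Python 3.11.15, numpy 2.4.6, pandas 2.3.3, scipy 1.17.1 and matplotlib 3.10.9. Gene order and gene overlaps came from RefSeq (GRCh38), whose coordinates were compared among genes only and not with the peaks.

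The loci, windows and measures were chosen with earlier results of these data known. All 6 loci are described, with every TAL1 peak, the UTX peaks that hold one and up to 3 of the widest UTX peaks of each locus by position, since no score was given. Motifs were not searched, because an hg19 sequence was not used.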

Additional observations from a re-analysis of the deposited data

How the results depend on the processing

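Of 53 values recomputed under other settings, 51 stayed within the 95% interval of the reported value or, for densities, within 1.5 times of it. The share of TAL1 peaks in UTX (80%) became 100% in 2 settings: without LEF1, which holds both TAL1 peaks lacking UTX (6 of 6), and with the wider 50% of the TAL1 list (6 of 6), which leaves those narrow peaks out. With the wider 50% of the UTX list it was 50% (5 of 10). That value counts among the 51 because the interval, from 10 TAL1 peaks, runs from 44.4 to 97.5%. The whole-list share under these width cuts was not computed, so these shifts cannot be assigned to the loci. The share of UTX peaks with TAL1 ranged from 16.2 to 25%, the median UTX width from 322.5 to 367 bases, the UTX density from 26.2 to 36.7 per Mb and the TAL1 density from 6.12 to 10.3 per Mb. Settings were an overlap of at least 50% of the shorter peak, centres within 500 bases, windows extended or shortened by 20 kb at each end, each locus left out and, chosen after seeing the data, peaks wholly inside the windows. The extended windows held 40 UTX and 10 TAL1 peaks and the shortened ones 29 and 7. The 50% overlap rule could not change either share, because all 8 shared TAL1 peaks lay wholly inside UTX. Leaving out BCL11B or IKZF1, with 0 TAL1 peaks, could not change the share of TAL1 peaks in UTX. The 51 thus include values that were fixed in advance. Most settings also reuse the same peaks, so the count of 51 does not show that the values are stable. No paired analysis was possible because each protein has 1 list. With unknown depth, a locus without a TAL1 peak may still hold TAL1 below the unknown threshold.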
